A study of Mus musculus with 9 samples.

Results

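The hippocampal miRNAs of all mice that received lipopolysaccharide (LPS), with or without gastrodin (GAS), were compared with those of the saline mice. LPS is a component of the outer membrane of Gram-negative bacteria, and GAS is a phenolic glucoside from the orchid Gastrodia elata. All 9 small RNA libraries of the study came from the hippocampus of C57BL/6J mice and entered the comparison, 6 of them as LPS-injected and 3 as saline. The saline group received 0.9% saline without LPS. The LPS group (3 libraries) received LPS intraperitoneally at 1 mg/kg, with saline labelled as 0.12%. The LPS + GAS group (3 libraries) received the same dose of LPS and GAS at 100 mg/kg, 1 h after LPS per the labels, while other statements of the study place GAS together with LPS or before it. The methods describe adult male mice. The sources used here do not say whether a library holds RNA of a single mouse or of several, so p-values measure the spread between these libraries only. No group received GAS without LPS, and the difference between LPS + GAS and LPS was tested separately. Of 1448 miRNA rows, 628 reached 10 reads in 3 or more libraries and were tested, and 820 were not.

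MiRNAs are RNAs of about the length printed here that guide the silencing complex to mRNAs, mainly by the bases of the seed, which are bases 2 to 8 from the 5′ end. Each is cut from a hairpin precursor that can release a mature miRNA from either side, the 5p arm and the 3p arm, and usually 1 arm is kept while the other is degraded. LPS acts on Toll-like receptor 4 of microglia and other myeloid cells. The NF-kappaB signalling that follows is known to induce the genes of miR-155 and miR-146a.

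In 8 of the 628 miRNAs, all 6 LPS-injected libraries lay on the same side of all 3 saline libraries. Their mature sequences, from the deposited table, are shown because they are the miRNAs that separated the groups library by library. The seed is in capitals.
miR-21a-3p: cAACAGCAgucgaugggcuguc
miR-7b-3p: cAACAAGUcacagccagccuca
miR-322-3p: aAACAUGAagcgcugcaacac
miR-7236-3p: uUGGACCGcacagauuuagacc
miR-3086-3p: cCCAAUGAgccuacagucuaag
miR-1983: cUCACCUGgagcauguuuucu
miR-6971-3p: aCAGCCUCugcuucuucucag
miR-1193-3p: uAGGUCACccguuuuacuauc
The first 4 were higher in the LPS-injected libraries and the last 4 were lower. None of the 8 shared its seed with another of them. Among the other tested miRNAs, miR-7a-2-3p has the seed of miR-7b-3p, miR-412-3p that of miR-1983 and miR-370-5p that of miR-1193-3p. These 3 did not separate the groups, with log2 fold changes of -0.15 for miR-7a-2-3p (SE 0.30), -0.067 for miR-412-3p (SE 0.22) and -0.086 for miR-370-5p (SE 0.22).

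The 5p arms of 3 of the higher miRNAs are shown for comparison, since they come from the same precursors and their seeds differ from those of the 3p arms.
miR-21a-5p: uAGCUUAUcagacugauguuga
miR-7b-5p: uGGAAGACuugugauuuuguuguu
miR-322-5p: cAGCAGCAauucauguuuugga
The seed of miR-7b-5p is shared with miR-7a-5p, and that of miR-322-5p with miR-15a-5p, miR-15b-5p, miR-16-5p, miR-195a-5p and miR-497a-5p.

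By RefSeq coordinates on GRCm38.p6 with host genes from GENCODE M21, 7 of the 8 miRNAs had an entry. Mir21a lies on chromosome 11 (86584067 to 86584158, minus strand) in an exon of Vmp1. Mir7b is on chromosome 17 (56242988 to 56243098, plus strand), outside any annotated host gene. Mir322 is on chromosome X (53054255 to 53054349, minus strand), outside a host gene, with 6 other miRNA genes within 10 kb. Mir7236 lies in an intron of Rab40b on chromosome 11 (121387145 to 121387204, minus strand). Mir3086 lies in an intron of Hspa12a on chromosome 19 (58911673 to 58911759, minus strand). Mir1983 (chromosome 13, 21896918 to 21897049, minus strand) and Mir1193 (chromosome 12, 109715671 to 109715791, plus strand) have no host gene, and Mir1193 stands in the large miRNA cluster of the imprinted Dlk1-Dio3 region. MiR-6971-3p was not placed here.

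Reads counted on miRNAs ranged from 10412119 to 11457656 in the saline libraries and from 10119758 to 10707876 in the LPS-injected libraries. Sampling noise would give replicate pairs a chi-square of about 1 per degree of freedom, and the 9 pairs within groups had 170 to 426. Levels are given as CPM (a miRNA's reads out of 10 to the power of 6 counted in the library), scaled by edgeR's TMM factors (0.914 to 1.19). Neuronal miRNAs were abundant, as in brain tissue: miR-124-3p, the most abundant of 21 listed, had 70546 ± 9038 CPM (SD, n = 6) in the LPS-injected and 57003 ± 13807 CPM (SD, n = 3) in the saline libraries.

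By edgeR's quasi-likelihood test of 6 against 3 libraries, 0 of the 628 miRNAs (0%) reached an adjusted p of at most 0.05, with or without the requirement of a 2-fold change. At an unadjusted p under 0.05 there were 16 (2.55%), of which 7 were higher and 9 lower in the LPS-injected libraries. MiR-21a-3p had the lowest adjusted p of 0.240, and the next was 0.996. DESeq2's Wald test called 1 miRNA, miR-21a-3p, and limma-voom called 0. The median log2 fold change was -0.030, with quartiles of -0.13 and 0.11, and 275 miRNAs (43.8%) were above 0. The median standard error was 0.24. For 474 miRNAs (75.5%) the 95% confidence interval lay within a 2-fold change either way, and for the others it reached past a 2-fold change. The 8 miRNAs without overlap are 1.27% of those tested, 0.637% in each direction. Under a random division of the 9 libraries in 6 and 3, a miRNA separates with a probability of 0.0238. The 8 are thus no more than such a division gives on average. Likewise, the 16 are no more than an unadjusted threshold of 0.05 alone gives on average.

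**Figure D1:**
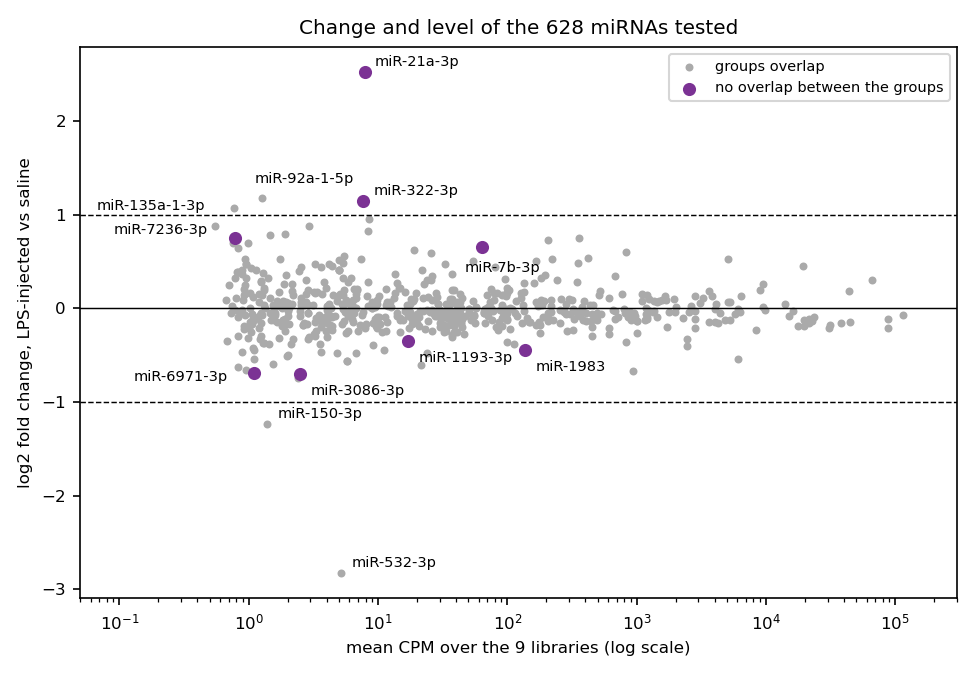
Log2 fold change between the 6 LPS-injected and the 3 saline libraries (y axis) against the mean CPM over the 9 libraries (x axis, log scale) for the 628 miRNAs tested. Purple points are the 8 miRNAs without overlap between the groups, dashed lines mark a 2-fold change, and 6 miRNAs lie outside them, with miR-21a-3p at 2.52 and miR-532-3p at -2.83.

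The difference was 2-fold or more for 6 miRNAs. Of these, miR-21a-3p (log2 fold change 2.52), miR-322-3p (1.15), miR-92a-1-5p (1.18, SE 0.43) and miR-135a-1-3p (1.07, SE 0.54) were higher, and miR-150-3p (-1.24, SE 0.38) and miR-532-3p (-2.83, SE 1.35) were lower. Except for miR-21a-3p and miR-322-3p, their libraries overlapped between the groups. MiR-92a-1-5p and miR-135a-1-3p were near the read minimum, at means of 0.679 and 0.443 CPM in saline against 1.58 and 0.936 CPM in LPS-injected libraries.

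When LPS and LPS + GAS libraries each had their own mean, so that differences between them did not count as spread, the mean of both against saline gave 1 called miRNA of 628 (0.159%), miR-21a-3p. It had a log2 fold change of 2.38 (SE 0.28) and an adjusted p of 0.00601 by edgeR. Between LPS + GAS and LPS, 0 of 628 were called, 23 had an unadjusted p under 0.05, and the lowest adjusted p was 0.600.

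The miRNA farthest above saline was miR-21a-3p, the minor arm of the miR-21 precursor. Saline libraries held 21, 24 and 15 of its reads, LPS libraries 57, 71 and 71, and LPS + GAS libraries 224, 154 and 105. The 3 groups did not overlap, with saline lowest and LPS + GAS highest. In CPM this was 10.9 ± 6.15 (SD, n = 6) in LPS-injected against 1.88 ± 0.324 (SD, n = 3) in saline libraries, a log2 fold change of 2.52 (SE 0.49, 95% interval 1.43 to 3.61, adjusted p = 0.240 by edgeR with Benjamini-Hochberg adjustment). The log2 fold change against the same saline libraries was 1.72 for LPS and 3.04 for LPS + GAS. LPS + GAS exceeded LPS by 1.32 on the log2 scale, with an adjusted p of 0.600 by edgeR, and the spread of the 6 LPS-injected libraries includes this gap. DESeq2's Wald test on the same 6 against 3 libraries gave an adjusted p of 1.29e-05, and edgeR with no filter on low counts gave 0.0397.

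MiR-7b-3p comes from one of the precursors of miR-7, a miRNA of neurons and neuroendocrine cells. Its reads were 478, 529 and 442 in saline, 589, 851 and 559 in LPS, and 866, 840 and 832 in LPS + GAS libraries. The saline libraries were close together, and LPS + GAS lay above LPS after scaling, at 80.1 to 85.0 CPM against 56.2 to 70.7 CPM. The LPS-injected mean was 71.9 ± 12.2 CPM (SD, n = 6) against 45.7 ± 1.12 CPM (SD, n = 3), with a log2 fold change of 0.66 (SE 0.17, 95% interval 0.27 to 1.04). LPS alone gave 0.44 and LPS + GAS 0.84, and the difference of 0.41 between them had an adjusted p of 0.903 by edgeR.

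MiR-322-3p belongs to a cluster with miR-503, and the 5p arm of its precursor carries the seed of the miR-15/16 family, known for targets in the cell cycle. There were 64, 42 and 28 reads in saline, 71, 99 and 146 in LPS, and 91, 65 and 116 in LPS + GAS libraries. Saline 1 with 64 reads and LPS + GAS 2 with 65 reads were nearly level. The means were 9.37 ± 3.06 CPM (SD, n = 6) and 4.22 ± 1.70 CPM (SD, n = 3), with a log2 fold change of 1.15 (SE 0.33, 95% interval 0.42 to 1.88). The log2 fold change was 1.24 for LPS and 1.05 for LPS + GAS. Of the 6 tested miRNAs from the other genes within 10 kb, 1 was higher and 5 were lower, from -0.30 for miR-450b-3p to 0.33 for miR-450b-5p, with a median of -0.13, and none of them separated the groups.

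MiR-7236-3p, the rarest of the 4 that were higher, had 6, 7 and 4 reads in saline, 9, 11 and 10 in LPS, and 7, 11 and 9 in LPS + GAS libraries. Its groups touched in reads and were apart only after scaling. The log2 fold change was 0.75 (SE 0.33, 95% interval 0.0074 to 1.49).

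Among the miRNAs that were lower, miR-3086-3p had 35, 37 and 34 reads in saline, 22, 26 and 26 in LPS, and 23, 18 and 14 in LPS + GAS libraries. The saline libraries lay within a narrow range above all others. The means were 2.05 ± 0.425 CPM (SD, n = 6) in LPS-injected and 3.35 ± 0.0774 CPM (SD, n = 3) in saline libraries, a log2 fold change of -0.71 (SE 0.21, 95% interval -1.17 to -0.24). It was -0.53 for LPS and -0.91 for LPS + GAS.

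MiR-1983, the most abundant of the 8 by reads, had 1731, 2012 and 1568 reads in saline, 1111, 1524 and 1481 in LPS, and 1412, 1040 and 1193 in LPS + GAS libraries. In CPM it was at 123 ± 16.1 (SD, n = 6) in LPS-injected and 167 ± 10.1 CPM (SD, n = 3) in saline libraries, with a log2 fold change of -0.44 (SE 0.15). The groups were apart by less than the range of the LPS-injected libraries themselves.

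MiR-6971-3p had 14, 16 and 17 reads in saline, 10, 11 and 6 in LPS, and 12, 7 and 12 in LPS + GAS libraries, a log2 fold change of -0.69 (SE 0.26). MiR-1193-3p had 205, 225 and 201 reads in saline, 162, 232 and 133 in LPS, and 165, 118 and 185 in LPS + GAS libraries, with a log2 fold change of -0.35 (SE 0.18, 95% interval -0.75 to 0.055). Its highest LPS library exceeded saline in reads and fell below it only after scaling. Of 30 tested miRNAs from the 20 genes within 10 kb of Mir1193, 10 were higher and 20 lower, from -0.74 for miR-1197-3p to 0.75 for miR-495-3p, with a median of -0.088.

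**Figure D2:**
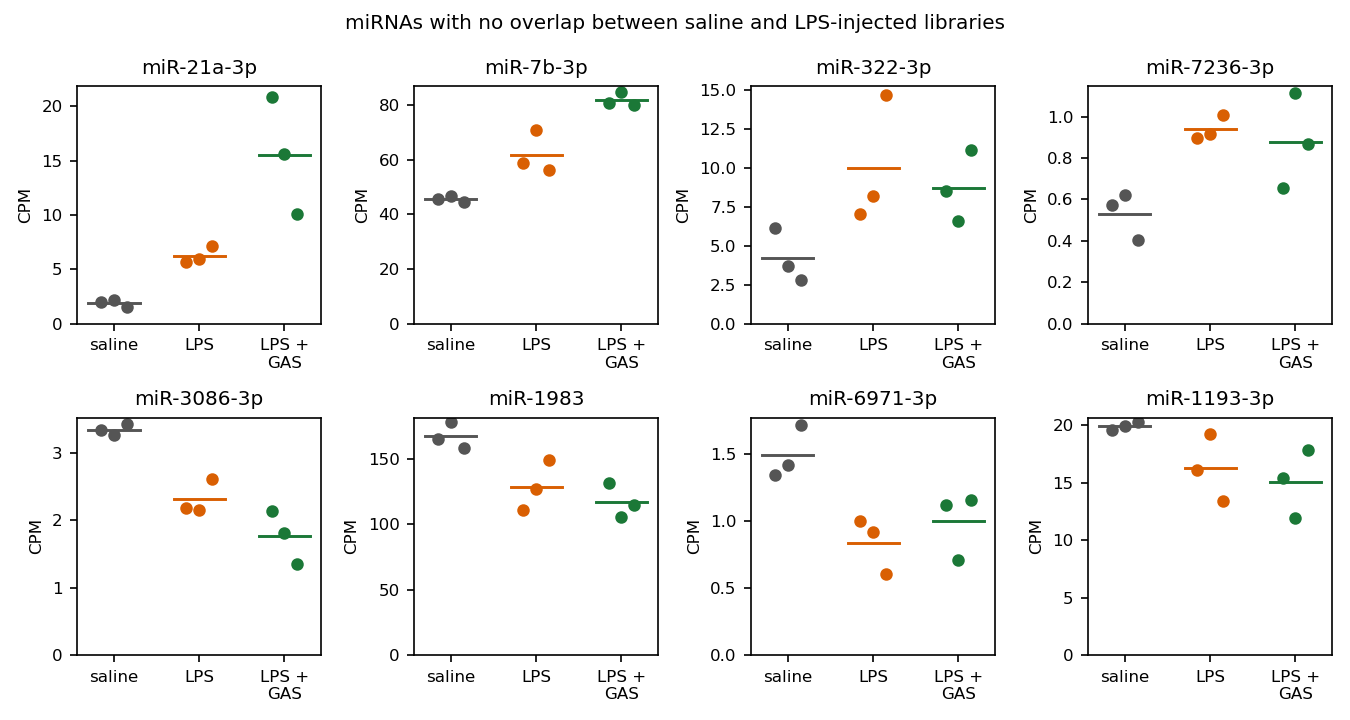
Level (CPM, y axis from 0) of the 8 miRNAs without overlap between saline and LPS-injected libraries, 1 point per library and a line at each group's mean of 3 libraries. MiR-21a-3p has its 3 LPS + GAS libraries above its 3 LPS libraries, whereas LPS and LPS + GAS libraries overlap for miR-322-3p.

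The number of miRNAs without overlap was 8 with TMM, 8 with DESeq2's size factors and 9 with library totals, but which miRNAs they were depended on the scaling. Of the 8 with TMM, 7 kept their separation with DESeq2's size factors, 5 with library totals alone and 6 in unscaled reads, and miR-1193-3p lost it in all 3. MiR-21a-3p, miR-7b-3p, miR-322-3p, miR-3086-3p and miR-6971-3p kept it in each. An exact two-sided permutation test over the 84 ways to divide the 9 libraries cannot give a p under 0.0238, and the 8 reach it by the way they were chosen. Over the 47 miRNAs of the naming rule, the lowest p of this exact test after Benjamini-Hochberg adjustment was 0.140. The 47 include these 8, so this value too follows from how they were chosen, and it does not adjust for the 628 tested.

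The ratio of both arms of a precursor does not depend on the scaling of the library. MiR-21a-3p amounted to 0.132% to 0.190% of miR-21a-5p in the saline libraries and to 0.491% to 1.33% in the LPS-injected libraries. MiR-21a-5p itself, the abundant arm and a miRNA known from activated macrophages and glia, was at 1133 ± 310 CPM (SD, n = 6) against 1237 ± 388 CPM (SD, n = 3), with a log2 fold change of -0.13 (SE 0.27). MiR-322-3p was 0.748% to 1.43% of miR-322-5p in saline and 1.71% to 4.12% in LPS-injected libraries, and the log2 fold change of miR-322-5p was -0.050 (SE 0.14). In both precursors the 3p arm was thus higher in LPS-injected libraries, while the 5p arms overlapped between the groups. MiR-7b-3p was 1.04% to 1.60% of miR-7b-5p in saline and 1.16% to 2.55% in LPS-injected libraries, which overlapped, and miR-7b-5p had a log2 fold change of 0.13 (SE 0.20).

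Over the 188 precursor names with both arms tested, this ratio separated the groups in 3 (1.6%), which were miR-21a, miR-322 and miR-495. Under a random division of the libraries a ratio separates with a probability of 0.0238, so the 3 are no more than such a division gives on average. In all 3 the 3p arm gained on the 5p arm. MiR-21a and miR-322 had already been chosen because their 3p arms did not overlap between the groups. The shared direction was not tested. MiR-495 was named after its values were seen. MiR-495-3p, from the same cluster as miR-1193, had 2497, 1962 and 3187 reads in saline, 4007, 5116 and 6058 in LPS, and 3262, 3399 and 3958 in LPS + GAS libraries. Its reads did not overlap, but in CPM LPS + GAS 1 fell below the highest saline library. MiR-495-3p was 823% to 1836% of miR-495-5p in LPS-injected against 399.6% to 779% in saline libraries, and its log2 fold change was 0.75 (SE 0.25, adjusted p = 0.996 by edgeR), against -0.19 (SE 0.17) for miR-495-5p.

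**Figure D3:**
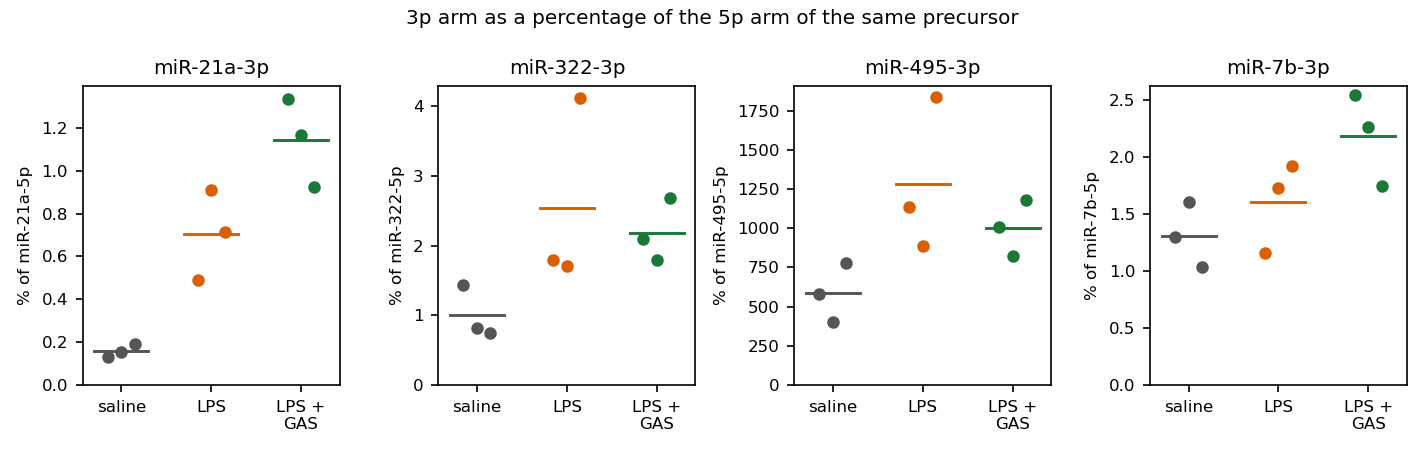
Reads of the 3p arm as a percentage of the reads of the 5p arm of the same precursor (y axes from 0), 1 point per library and a line at each group's mean of 3 libraries. All 6 LPS-injected libraries are above all 3 saline libraries for miR-21a, miR-322 and miR-495, while for miR-7b LPS 1 at 1.16% lies within the saline range.

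Apart from miR-21a-3p, no miRNA linked to inflammation had an interval that excluded equal levels. Of 21 listed, 15 were tested and 0 were called (background 0%), 9 had log2 fold changes above and 6 below 0, and the median was 0.035 against -0.030 over all tested miRNAs. The median was 0.073 for LPS and 0.0045 for LPS + GAS against saline. For 13 of the 15 the 95% interval lay within a 2-fold change either way, the exceptions being miR-21a-3p and miR-155-5p.

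MiR-155-5p, induced by NF-kappaB in myeloid cells, was at 8.23 ± 2.93 CPM (SD, n = 6) in LPS-injected and 5.71 ± 2.27 CPM (SD, n = 3) in saline libraries, with a log2 fold change of 0.53 (SE 0.37, 95% interval -0.29 to 1.34). It had 67, 36 and 75 reads in saline, 56, 50 and 80 in LPS, and 128, 100 and 99 in LPS + GAS libraries, so the LPS libraries overlapped the saline libraries and the LPS + GAS libraries lay above them. The log2 fold change was 0.052 for LPS and 0.88 for LPS + GAS.

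MiR-146a-5p, which restrains Toll-like receptor signalling through Irak1 and Traf6, had 401 ± 57.6 CPM (SD, n = 6) against 381 ± 90.3 CPM (SD, n = 3), a log2 fold change of 0.073 (SE 0.18, 95% interval -0.33 to 0.48). MiR-146b-5p, with the same seed family, was at 0.091 (SE 0.14). The CREB-driven miR-132 and miR-212 had log2 fold changes of 0.27 for miR-132-5p (SE 0.25), 0.084 for miR-132-3p (SE 0.20), -0.13 for miR-212-5p (SE 0.37) and 0.035 for miR-212-3p (SE 0.16). MiR-221, miR-222, miR-125a, miR-125b and miR-187 ranged from -0.055 for miR-221-3p to 0.11 for miR-125b-5p.

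**Figure D4:**
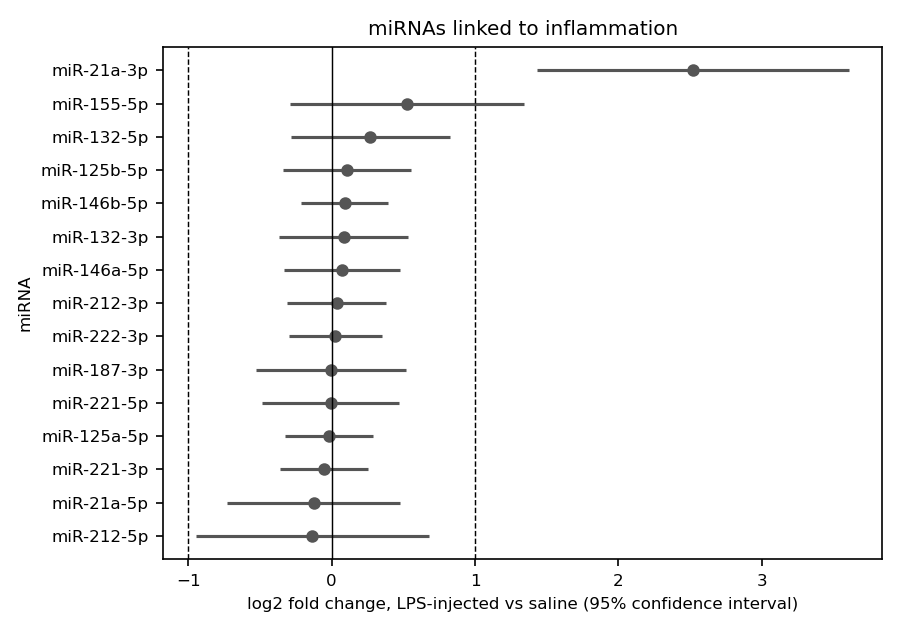
Log2 fold change of LPS-injected against saline libraries with its 95% confidence interval (x axis) for the 15 tested miRNAs of the inflammation list. Dashed lines mark a 2-fold change, and the interval of miR-21a-3p (1.43 to 3.61) is the only one to exclude 0.

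Levels of miRNAs that mark cell types were compared in the same libraries. In bulk tissue, fewer cells of a type and less RNA per cell cannot be told apart. Of the leukocyte and microglia list (7 of 8 tested, 0 called, 4 higher and 3 lower), the median log2 fold change was 0.21, at -0.14 for LPS and 0.33 for LPS + GAS. Its summed level was 5460 to 6091 CPM in saline and 3236 to 6997 CPM in LPS-injected libraries. MiR-142a-3p, made in all blood cell lineages, had 0.21 (SE 0.27), and miR-223-3p of neutrophils and monocytes had 0.28 (SE 0.45). MiR-150-3p, the minor arm of a lymphocyte miRNA, had 29, 17 and 25 reads in saline, 12, 16 and 7 in LPS, and 5, 15 and 5 in LPS + GAS libraries. Its saline 2 library and LPS + GAS 2 library were level at 1.50 and 1.52 CPM. Its log2 fold change was -1.24 (SE 0.38), while the abundant miR-150-5p had -0.12 (SE 0.24).

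Choroid plexus and ependyma miRNAs differed most among libraries. Of 22 listed, 16 were tested, 0 were called, and 15 had a log2 fold change above 0, with a median of 0.45. The median was -0.45 for LPS and 0.90 for LPS + GAS. Their sum was 30731, 9610 and 11247 CPM in saline, 23085, 10399 and 9709 CPM in LPS, and 59248, 12337 and 27424 CPM in LPS + GAS libraries. Both groups thus held libraries with high and with low levels. Without LPS + GAS 1 the median was -0.13, and without saline 1 it was 1.20. MiR-204-5p, the leading miRNA of this epithelium, had a log2 fold change of 0.46 (SE 0.59).

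Leaving out the 4 libraries above 20000 CPM of this list (saline 1, LPS 1, LPS + GAS 1 and LPS + GAS 3), an alternative chosen after the data had been seen, moved its median to -0.059. MiR-21a-3p then had a log2 fold change of 2.37 (SE 0.51), miR-322-3p 1.58 and miR-7b-3p 0.63, and 0 miRNAs were called.

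The red blood cell list had a median of 0.18 over 7 tested miRNAs, at -0.36 for LPS and 0.42 for LPS + GAS, and sums of 2085 to 4347 CPM in saline and 2220 to 6247 CPM in LPS-injected libraries. All 3 LPS + GAS libraries were above all saline libraries in this sum. MiR-451a, which red cell precursors make without Dicer, had a log2 fold change of 0.19 (SE 0.37). The median was higher for LPS + GAS than for LPS in this list and in the leukocyte, choroid plexus, oligodendrocyte, blood vessel and hindbrain lists. It was lower in the inflammation, neuron and epithelium lists. MiR-21a-3p was also higher in LPS + GAS than in LPS libraries. LPS + GAS 1 was the highest library both for miR-21a-3p (20.9 CPM) and for the choroid plexus and ependyma list. Saline 1, the next highest for that list at 30731 CPM, had 2.01 CPM of miR-21a-3p. LPS + GAS 2, at 12337 CPM for the list, had 15.6 CPM of miR-21a-3p. The part of red blood cells, leukocytes and choroid plexus in the values of miR-21a-3p was not tested.

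Of the oligodendrocyte list, 5 of 6 were tested, 0 were called, and all 5 had a log2 fold change below 0, with a median of -0.27, at -0.61 for LPS and -0.14 for LPS + GAS. MiR-219a-2-3p, needed for oligodendrocyte differentiation, was at 2230 ± 813 CPM (SD, n = 6) against 2953 ± 699 CPM (SD, n = 3), a log2 fold change of -0.41 (SE 0.32). The lowest sum, 1976 CPM, was that of LPS 2, and the ranges overlapped, at 3861 to 6046 CPM in saline and 1976 to 5847 CPM in LPS-injected libraries.

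Neuronal miRNAs (21 tested, 0 called, 12 higher and 9 lower) had a median of 0.0091, and the log2 fold change of miR-124-3p was 0.31 (SE 0.17). The blood vessel list (5 of 8 tested) had a median of -0.047, with -0.081 (SE 0.12) for the endothelial miR-126a-3p. The epithelium list (11 of 18 tested) had a median of -0.094, with 5 higher and 6 lower. Of the hindbrain list only miR-10a-5p (0.11, SE 0.30) and miR-10b-5p (0.83, SE 0.49) were tested, with sums of 14.6 to 22.6 CPM in saline and 12.8 to 41.0 CPM in LPS-injected libraries.

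**Figure D5:**
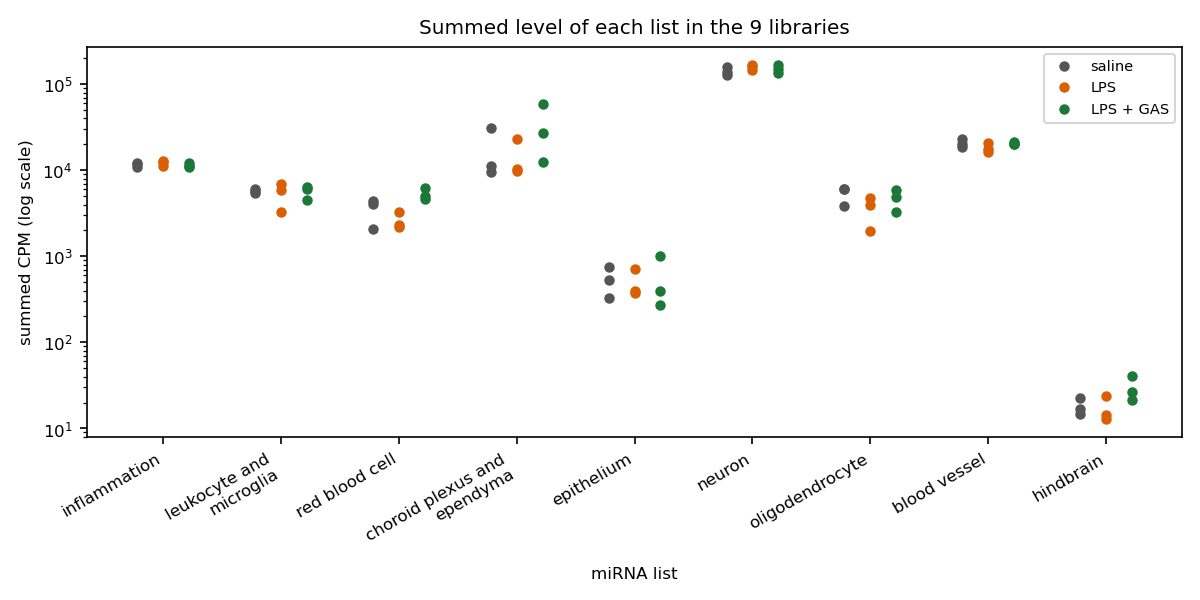
Summed CPM (y axis, log scale) of the tested members of each miRNA list (x axis) in each of the 9 libraries, coloured by group. Saline and LPS-injected libraries overlap in all 9 lists, and the choroid plexus and ependyma list reaches from 9610 to 59248 CPM.

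Of the miRNAs that the study names in its sequencing results, several had nearly all their reads in part of the libraries. The study set LPS against saline and LPS + GAS against LPS, and reports changes in opposite directions. The log2 fold changes given here put LPS and LPS + GAS libraries together unless a group is named, so opposite changes partly cancel in them. Where the study writes miR-297-5p, the table's rows for its a, b and c forms were taken here. MiR-297c-5p had 0 to 646 reads in saline and 0 to 909 reads in LPS-injected libraries, with a log2 fold change of 0.59 (SE 1.94). MiR-532-3p had 170, 225 and 2 reads in saline and at most 3 in LPS-injected libraries, except LPS + GAS 3 with 98. MiR-532-5p was at 29 and 8 reads in LPS 1 and LPS 3 and at 11361 or more in every other library, with a log2 fold change of -0.66 (SE 1.41). MiR-107-3p had a log2 fold change of 0.95 (SE 0.64), and 0.19 without LPS 3. The log2 fold change was -0.18 for miR-297a-5p and -0.28 for miR-297b-5p, and miR-6395, which did not reach the read minimum, had 43 reads in saline 3, 31 in LPS + GAS 2, 1 in LPS 1 and 0 in the others. The study also names miR-21a-3p, as raised by LPS and reduced by GAS. Here its LPS + GAS libraries lay above its LPS libraries, a difference with an adjusted p of 0.600 by edgeR.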

How the data were processed

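Small RNA libraries (BGISEQ-500) of 3 saline, 3 LPS and 3 LPS + GAS samples of mouse hippocampus were compared. The authors deposited 1 table with read counts on 1448 mature miRNAs, not normalized. The submitters' processing notes name the build GRCm38.p6, while aligner and miRBase release: not given in the sources used here. The deposited table also holds exp values, whole numbers never above the read count (at most 171527), whose making is not described and which were used as an alternative. The authors' comparisons in the deposited table (log2 fold changes, p-values and q-values) and group means were not used. Each per-library column was mapped by name, and 0 were left unmapped. In 27 rows the mature sequence is shared with another row, so their reads cannot be told apart.

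A minimum of 10 reads in 3 or more libraries kept 628 miRNAs, which were fitted in edgeR 4.0.16 under R 4.3.3 with TMM factors and a 2-group model (6 LPS-injected and 3 saline libraries, glmQLFit and glmQLFTest), with Benjamini-Hochberg adjustment over the 628. Called means that the adjusted p was at most 0.05 and that the log2 fold change was 1 or more in size. Log2 fold changes use a prior count of 0.125, and standard errors were derived from the fold change and its p. At this depth (10119758 to 11457656 reads per library) 10 reads are about 1 CPM, and precision for rarer miRNAs was limited by counting. Arm ratios used reads. Permutation tests were exact and two-sided. Mature sequences came from the deposited table, positions from RefSeq by name (1221 rows matched) and host genes from GENCODE M21.

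The members, lists and tests were chosen with earlier results of these data known. Named miRNAs were those with an adjusted p of at most 0.05, those without overlap between the groups, tested inflammation list members, the most abundant and the lowest-p member of each other list, the 3 largest fold changes each way, other arms of the same precursors and the miRNAs named in the study's results (for miR-297-5p, its a, b and c forms); further names were chosen after their values were seen.

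Alternatives were DESeq2 1.42.0 size factors and its Wald test, library totals, no filter, at least 50 reads, limma-voom (limma 3.58.1), robust edgeR, 3 group means, LPS or LPS + GAS libraries only, the replicate number as a block, exp values, an adjusted p of at most 0.1 and each library left out. Leaving out the 4 libraries highest in choroid plexus miRNAs was added after the data had been seen. On simulated counts of 613 miRNAs, 6 against 3, edgeR recovered 66 of 98 changed by a log2 fold change of 1 (67.3%), 96 of 96 changed by 2, and called 5 of 419 unchanged (1.19%). The simulated spread came from the fit with 3 group means and held no difference between LPS and LPS + GAS. Many miRNAs were changed in it, which makes the adjustment less strict. These rates therefore do not carry over to the data, where miR-21a-3p at 2.52 had an adjusted p of 0.240 by edgeR.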

Additional observations from a re-analysis of the deposited data

Results flagged for a closer look

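Of 56 values checked over the 6 LPS-injected libraries, 4 had 1 library far from the other 5, where chance alone gives about 1 in 20. MiR-204-5p was at 51934 CPM in LPS + GAS 1 and at 9098 to 23721 CPM in the others. The summed choroid plexus and ependyma list was at 59248 CPM in the same library and at 9709 to 27424 CPM in the others, and miR-204-5p is the main part of this sum. MiR-532-3p was at 9.44 CPM in LPS + GAS 3 and at 0 to 0.302 CPM in the others. MiR-107-3p was at 31.0 CPM in LPS 3 and at 3.18 to 7.23 CPM in the others.

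Among the rows below the read minimum, miR-12185-3p had reads in all 6 LPS-injected libraries, 9 in sum, and 0 in the saline libraries. It was the only untested row of this kind, and 0 untested rows had reads in all 3 saline libraries and in 0 LPS-injected libraries.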

How the results depend on the processing

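Between LPS-injected and saline libraries, 1 miRNA, miR-21a-3p, was called in place of 0, with or without the minimum fold change, with no filter on low counts (adjusted p 0.0397), by DESeq2's Wald test (1.29e-05), with 3 group means (0.00601) and with the LPS + GAS libraries only (0.0163). The cause was not tested. In the other alternatives, which include limma-voom, 0 were called, as in each fit without 1 library (0 to 0). MiR-21a-3p had log2 fold changes of 1.77 to 3.04 over 22 alternatives, with adjusted p from 1.29e-05 to 0.988, and miR-7b-3p (0.49 to 0.84) and miR-322-3p (0.93 to 1.58) also kept their direction. The miRNAs without overlap numbered 4 of 451 tested with at least 50 reads. There were 19 of 614 with the LPS libraries only and 46 of 612 with the LPS + GAS libraries only. Without the 4 libraries highest in choroid plexus miRNAs there were 77 of 607. Where fewer libraries had to be apart, chance alone separates more miRNAs, and these counts were not tested against each other. With 1 library left out, 8 to 31 of 623 to 628 tested miRNAs had no overlap. The number was 24, 25 and 31 without saline 1, 2 and 3 and 13 without LPS 1. Between LPS + GAS and LPS, 0 to 1 were called with 1 library left out, the call being miR-532-5p without LPS 2 (adjusted p 4.58e-05), when only the LPS libraries with 8 and 29 reads of it remained. Depth limits miRNAs near 10 reads, such as miR-7236-3p, which failed the read minimum in 3 of the fits without 1 library.

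With the replicate number as a block, 0 were called (lowest adjusted p 0.665). Deviations from the group means correlated between libraries of the same number by -0.284 to 0.370 over 9 pairs, of which 5 were over 0.1. All 3 pairs of saline with LPS + GAS were over 0.1 (0.296, 0.329 and 0.370), but those of the other groups were not all, so the numbers were not taken as pairs over the 9 libraries. Of the 9 libraries, 5 correlated best with their own number.

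Of 1014 values of the named miRNAs over 22 alternatives, 88 had the other sign, in miRNAs far from the threshold. With DESeq2's size factors the log2 fold change was 0.048 for miR-221-5p, 0.0047 for miR-221-3p, 0.037 for miR-125a-5p, 0.050 for miR-187-3p and 0.0055 for miR-322-5p, and by its Wald test 0.048, 0.0048, 0.037, 0.050 and 0.0055. With library totals these were 0.055, 0.014, 0.031, 0.031 and 0.0045. For miR-221-5p, miR-125a-5p and miR-187-3p the values were 0.039, 0.028 and 0.041 with no filter, 0.033, 0.018 and 0.032 with at least 50 reads, and 0.031, 0.022 and 0.034 with exp values, where miR-126a-3p was at 0.0095. With the LPS libraries only, miR-212-5p was at 0.18, miR-221-5p at 0.070, miR-221-3p at 0.048, miR-125a-5p at 0.0019, miR-322-5p at 0.023, miR-451a at -0.38, miR-144-3p at -0.21, miR-204-5p at -0.19, miR-34c-3p at -0.20 and miR-10a-5p at -0.30. With the LPS + GAS libraries only, miR-21a-5p was at 0.11, miR-132-3p at -0.027, miR-212-3p at -0.026, miR-222-3p at -0.021, miR-125a-5p at 0.0057, miR-125b-5p at -0.10 and miR-187-3p at 0.15. Without the 4 libraries highest in choroid plexus miRNAs, miR-212-5p was at 0.28, miR-221-5p at 0.048, miR-187-3p at 0.11, miR-144-3p at -0.038, miR-429-3p at 0.30, miR-7b-5p at -0.0055 and miR-3086-5p at -0.00055.

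With 1 library left out, sign changes were seen in miR-21a-5p (-0.36 to 0.091), miR-221-5p (-0.13 to 0.21), miR-125a-5p (-0.060 to 0.071), miR-187-3p (-0.15 to 0.17), miR-126a-3p (-0.10 to 0.015), miR-322-5p (-0.12 to 0.060), miR-3086-5p (-0.057 to 0.47), miR-222-3p (-0.022 to 0.14), miR-429-3p (-0.45 to 0.29), miR-146a-5p (-0.042 to 0.33), miR-221-3p (-0.12 to 0.079), miR-451a (-0.082 to 0.43), miR-150-5p (-0.22 to 0.045), miR-132-3p (-0.0062 to 0.25), miR-212-3p (-0.018 to 0.15), miR-204-5p (-0.0024 to 1.17), miR-10a-5p (-0.085 to 0.28) and miR-212-5p (-0.28 to 0.083).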
